A study of Mus musculus with 96 samples.

Results

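The daily time course of transcript levels in hepatocytes labelled RevDKO was followed in 12 RNA sequencing libraries, 3 at each of 4 zeitgeber times (ZT, counted in hours from lights on; darkness began at ZT12), chosen by their labels from the 96 libraries of the series. All mice were male C57BL/6J, injected as adults with an adeno-associated virus and then fed the D12492i high fat and sucrose diet for 4 weeks. RevDKO mice carried floxed Nr1d1 and Nr1d2 alleles and received Cre recombinase under the TBG promoter, which is active in hepatocytes, so that other liver cells kept both genes. Control mice carried floxed alleles and received GFP in the same vector, and RevScapTKO mice carried floxed Scap in addition and received Cre. The 12 Control and the 12 RevScapTKO hepatocyte libraries of the same table serve here only to show where the RevDKO time course differed. The labels do not tie libraries to single animals, so p-values measure the spread between the libraries of a group.

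The liver clock is a loop in which the activators BMAL1 (encoded by Arntl) and CLOCK drive the genes of their own repressors, the PER and CRY proteins and the nuclear receptors REV-ERBα (Nr1d1) and REV-ERBβ (Nr1d2). REV-ERBs repress Arntl and other genes that carry ROR response elements, and they are known to restrain lipid synthesis genes in the liver. Feeding, glucocorticoids and body temperature also give daily rhythms to hepatocytes, and mice eat mainly in the dark phase.

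Values are RPKM scaled up by 10, termed RPKTM and quantile normalized by the authors, and can be compared between genes because they are per length. Differences between times are between mean values of log2(RPKTM + 1), so that changes of weakly expressed genes come out too small, and are given ± their standard error. Levels are given by library, or as mean ± SD over the 3 libraries of a time. A gene was called where limma's moderated F-test over the 4 times, on the 12 RevDKO libraries, had a Benjamini-Hochberg adjusted p under 0.05 over all genes tested. All 3 libraries of the highest time lay above all 3 of the lowest in each of the 456 genes called. The same was seen in 51.9% of all genes tested, so this separation is common and is given below only as a description. The sequencing depth is unknown, since every library holds the identical set of values. Correlations across transcripts between pairs of the 12 libraries lay between 0.910 and 0.977, and no pair was identical.

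The deleted genes were examined first. Nr1d1 (NM_145434, chr11:98629246-98636691, mm9) measured 215, 158 and 359 at ZT4, 326, 131 and 106 at ZT10, 65.4, 62.5 and 70.5 at ZT16 and 39.9, 76.3 and 43.5 at ZT22. It was highest in the light phase, and all 3 libraries at ZT4 lay above all 3 at ZT22, with a difference of 2.15 ± 0.39 (adjusted p of the F-test 0.018). Without replicate 1 at ZT22 that p was 0.0577. Control hepatocytes held 257 ± 128 at ZT4 and 8.28 ± 6.89 at ZT22 (SD, n = 3). The libraries labelled RevDKO held 244 ± 104 and 53.2 ± 20.1, so no loss of the transcript was seen at ZT4 or ZT22. The study itself reports strongly reduced mRNA of both REV-ERBs in hepatocytes of its knockout mice. Nr1d2 (NM_011584, chr14:19036570-19071620) measured 474, 332 and 402 at ZT4, 404, 379 and 396 at ZT10, 294, 271 and 308 at ZT16 and 225, 39.2 and 222 at ZT22. Its adjusted p of the F-test was 0.113. In a fit of all 36 hepatocyte libraries that p was 0.0299, so Nr1d2 was called there. Replicate 2 at ZT22 was far below the other 11 libraries. These values count reads over whole transcripts, outside the deleted exons too, and therefore do not check the deletion. Nr1d1 also overlaps Thra on the opposite strand, and whether counting used the strand is not given in the sources used here.

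Markers of macrophages, endothelial cells and stellate cells rose in these hepatocyte libraries through the day, and this touches many of the results. The sum of 12 macrophage markers ranged from 515 to 864.8 RPKTM at ZT4, from 454.9 to 1117 at ZT10, from 1254 to 2285 at ZT16 and from 1729 to 2644 at ZT22. The sum of 10 endothelial markers went from 934.2 to 1182 at ZT4 to 2274 to 2468 at ZT22, and that of 10 stellate and fibroblast markers from 867.2 to 1149 to 1858 to 2257. None of these 32 markers was at 0 in all 12 libraries. The mean sum of 9 lymphocyte and neutrophil markers was 26.3 at ZT4 and 74 at ZT22, that of 6 cholangiocyte markers 68 and 82.2, and that of 4 erythroid markers 235 and 166. Few of these passed the filter on low values and none was called. The sum of 11 hepatocyte markers lay between 526000 and 679900 in all 12 libraries, and limma called 0 of those 11 genes (3 at an unadjusted p under 0.05). Since every library holds the identical set of values, a sum over highly expressed genes is held in part by the normalization. It does not measure hepatocyte content. A rise was called for 5 of 12 macrophage markers, 4 of 10 endothelial markers and 2 of 10 stellate markers, against 3.62% of all genes tested. Clec4f, a receptor of Kupffer cells, went from 151 ± 25.2 at ZT4 to 509 ± 46.9 at ZT22. The log2 mean of the 32 markers rose in Control libraries as well, from 5.10 at ZT4 to 7.06 at ZT22, against 5.56 and 6.94 in RevDKO. More of another cell type and more RNA per cell of that type cannot be told apart in bulk libraries.

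**Figure D1:**
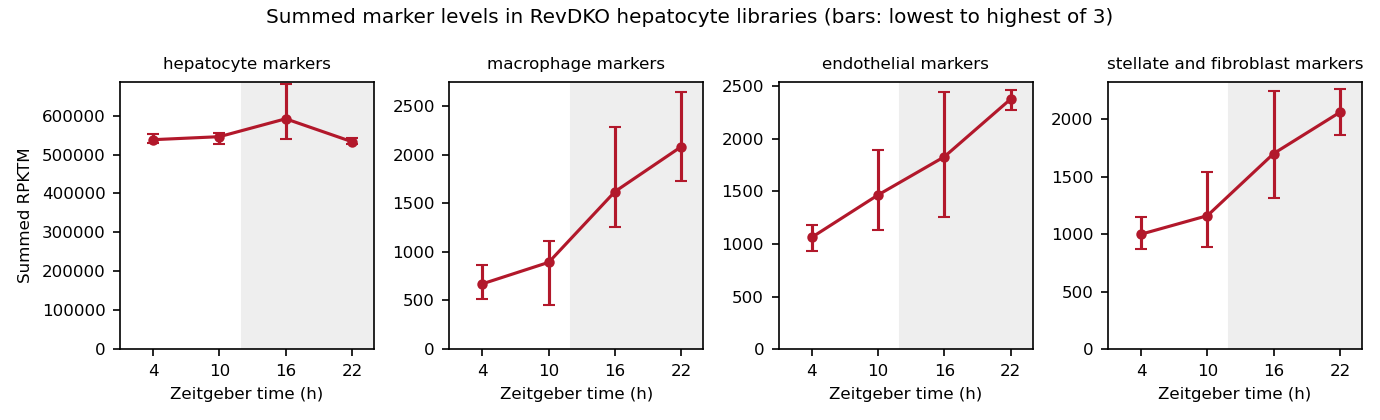
Summed RPKTM of the marker lists (vertical axis) against zeitgeber time (horizontal axis) in the RevDKO hepatocyte libraries, points being means of 3 libraries, bars the lowest to highest library, and shading the dark phase. Hepatocyte marker sums lay between 526000 and 679900, a range held in part by the quantile normalization. The macrophage sum rose from a mean of 671.8 at ZT4 to 2083 at ZT22.

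Of 12582 genes tested, 456 (3.62%) differed between the 4 times. Their highest mean fell at ZT4 for 111 genes (0.882% of those tested), at ZT10 for 63 (0.501%), at ZT16 for 84 (0.668%) and at ZT22 for 198 (1.57%). Most of the 198 had their lowest mean at ZT4 (148 genes), and 69 of the 111 genes highest at ZT4 were lowest at ZT16. At least 1 log2 unit separated highest and lowest means in 329 of the 456. Of the genes highest at ZT22, 97 (49%) had a higher level in the RevDKO macrophage table than here, as did 22.6% of those highest at ZT16, 1.8% at ZT4, 1.59% at ZT10 and 15.7% of all genes tested. The 2 tables were normalized separately, so this sets levels side by side without a test. The count of called genes rested on few libraries: it was 154 and 218 without replicate 1 and replicate 3 at ZT4, 258 without replicate 3 at ZT10, 139 and 238 without replicate 1 and replicate 3 at ZT16, and 140, 202 and 302 without replicate 1, 2 and 3 at ZT22. With the marker score as a covariate, an alternative chosen after seeing the data, 4 genes were called: Ciart, Tsc22d1, Slc10a2 and Mapk15. That score rises with time itself, so the fit cannot tell the 2 apart, either for genes that rise along with it or for genes that fall.

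Differences were called mainly between light and dark samplings. Between ZT4 and ZT10 only Slc10a2 was called (0.00795% of genes, lower at ZT10, with 1487 genes at an unadjusted p under 0.05), and between ZT16 and ZT22 limma called 0 genes (0%, with 994 at an unadjusted p under 0.05). From ZT10 to ZT16, 88 genes changed (0.699%, with 1770 at an unadjusted p under 0.05), of which 43 rose (0.342%) and 45 fell (0.358%). In a fit of all 36 hepatocyte libraries limma called 0 genes for that pair. ZT16 and ZT4 differed in 498 genes (3.96%), with ZT16 higher in 281 (2.23%) and lower in 217 (1.72%). Between ZT22 and ZT4, 561 genes differed (4.46%), of which 163 were higher at ZT4 (1.3%) and 398 lower (3.16%). ZT22 and ZT10 differed in 147 genes (1.17%), with ZT22 above ZT10 in 83 (0.66%) and below it in 64 (0.509%). These counts, too, moved by over 1.5 times on leaving out single libraries, and their ranges are given at the end.

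Calls of single genes also depended on the fit. Of 76 calls followed gene by gene, 34 were kept without each library in turn, 46 were lost with no filter on low values, 30 in a fit of all 36 hepatocyte libraries and 73 with the marker score. The fit of 36 libraries lost Per2, Tef, Lpin1, Sc5d, Msmo1, Acaca, Srebf1, Thrsp, Agpat2, Gpam, G6pc, Sds, Fbp1, Pygl, Slc10a2, Slc10a1, Cyp2a5, Cyp2b10, Cyp3a13, Ghr, Sult2a8, Mup7, Tsc22d1 and Moxd1 among the genes described below, with adjusted p-values from 0.0516 for Gpam to 0.549 for Cyp2a5. Those lost with no filter included Nr1d1 (0.0792), Per2, Tef, Usp2, Wee1, Acly, Srebf1, Scd1, Gpam, Pklr, G6pc, Bdh1, Ghr, Hsph1 and Cirbp.

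**Figure D2:**
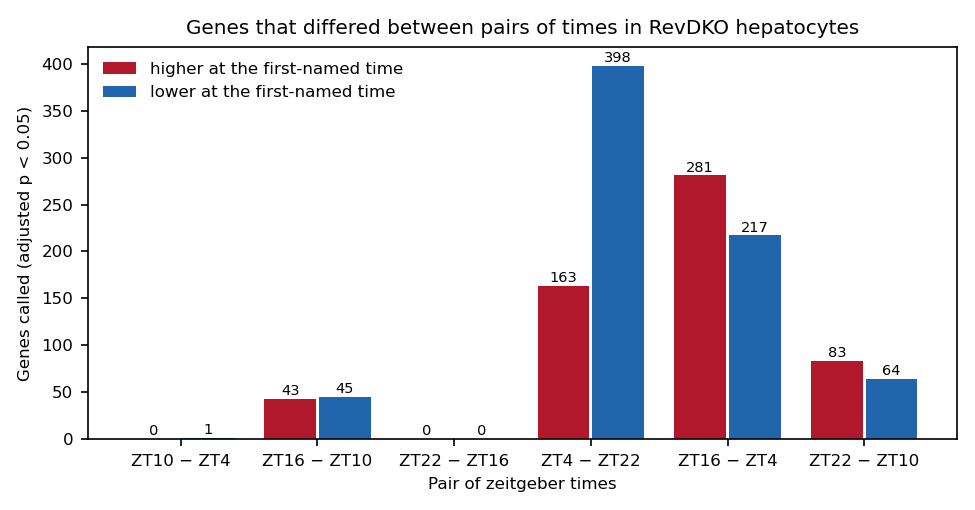
Number of genes called (vertical axis, limma, adjusted p under 0.05) for each pair of zeitgeber times (horizontal axis), red for genes higher and blue for genes lower at the first-named time. Pairs within the light or within the dark phase hold 1 and 0 genes, and ZT4 against ZT22 holds 163 higher and 398 lower.

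Among the clock activators, limma called 0 of 3 (1 at an unadjusted p under 0.05). Arntl (NM_001368412, chr7:120351025-120457640) measured 155, 143 and 154 at ZT4, 145, 117 and 122 at ZT10, 123, 142 and 140.3 at ZT16 and 139, 140.4 and 148 at ZT22. All 12 libraries lay between 117 and 155.1 RPKTM, and the adjusted p was 0.591. In Control hepatocytes Arntl went from 6.49 ± 3.6 at ZT10 to 116 ± 3.52 at ZT22, and the time course differed between the genotypes (adjusted p of the interaction 2.03e-07, limma over 36 libraries). Clock had means between 518 and 563, and Npas2, a paralogue of Clock, means between 61.4 and 112, with adjusted p-values of 0.795 and 0.161.

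Of 10 clock repressors, 3 were called, against 3.62% of all genes tested, each at another time of day. Ciart, which encodes the repressor CHRONO, measured 15, 16.7 and 10.5 at ZT4, 34.1, 59.4 and 47.9 at ZT10, 22.9, 30.5 and 13.3 at ZT16 and 4.14, 3.73 and 5.73 at ZT22. Its groups at ZT10 and ZT22 did not overlap, with a difference of 3.10 ± 0.33 and an adjusted p of 0.00256. Per2 measured 125, 98.6 and 116 at ZT4, 136, 111 and 184 at ZT10, 311, 203 and 249.7 at ZT16 and 217, 222 and 156 at ZT22, highest at ZT16 (adjusted p 0.0331), and its call was lost without any of 7 libraries, with adjusted p-values up to 0.095. Nr1d1, described above, was the third. Per3 (adjusted p 0.0534), Bhlhe41 (0.0586), Bhlhe40 (0.115), Cry1 (0.17), Cry2 (0.345) and Per1 (0.411) were not called. Per3 lay near the threshold and was called with a pseudocount of 5 (0.0491) and without ZT4 replicate 1 (0.0355) or 3 (0.047). With the replicate number as a block in the limma fit it was called as well (0.00564). Ciart means in Control were 53.5 ± 9.97 at ZT10 and 5.67 ± 3.6 at ZT22 against 47.1 ± 12.7 and 4.53 ± 1.05 in RevDKO.

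Output genes of the clock gave 5 calls of 13, against 3.62% of all genes. Dbp, a PAR bZIP factor and direct BMAL1 target, measured 129, 78.2 and 105 at ZT4, 212, 117 and 162 at ZT10, 25.4, 51.6 and 35.7 at ZT16 and 25.5, 24.5 and 13.4 at ZT22. Every light-phase library lay above every dark-phase library, and ZT10 exceeded ZT22 by 2.91 ± 0.32 (adjusted p 0.00178). Por, the electron donor of the cytochromes P450, measured 596, 413 and 593 at ZT4, 661, 899 and 1106 at ZT10, 2241, 1865 and 1948 at ZT16 and 1383, 1237 and 700.4 at ZT22, a difference of 1.93 ± 0.25 between ZT16 and ZT4 (adjusted p 0.00677). Usp2, a deubiquitinase, Wee1, a cell cycle kinase, and Tef, a relative of Dbp, were also highest at ZT16, with adjusted p-values of 0.0334, 0.0282 and 0.0496. Those 3 calls were lost without any of 8, 8 and 11 libraries, with adjusted p-values up to 0.0901, 0.0745 and 0.114.

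**Figure D3:**
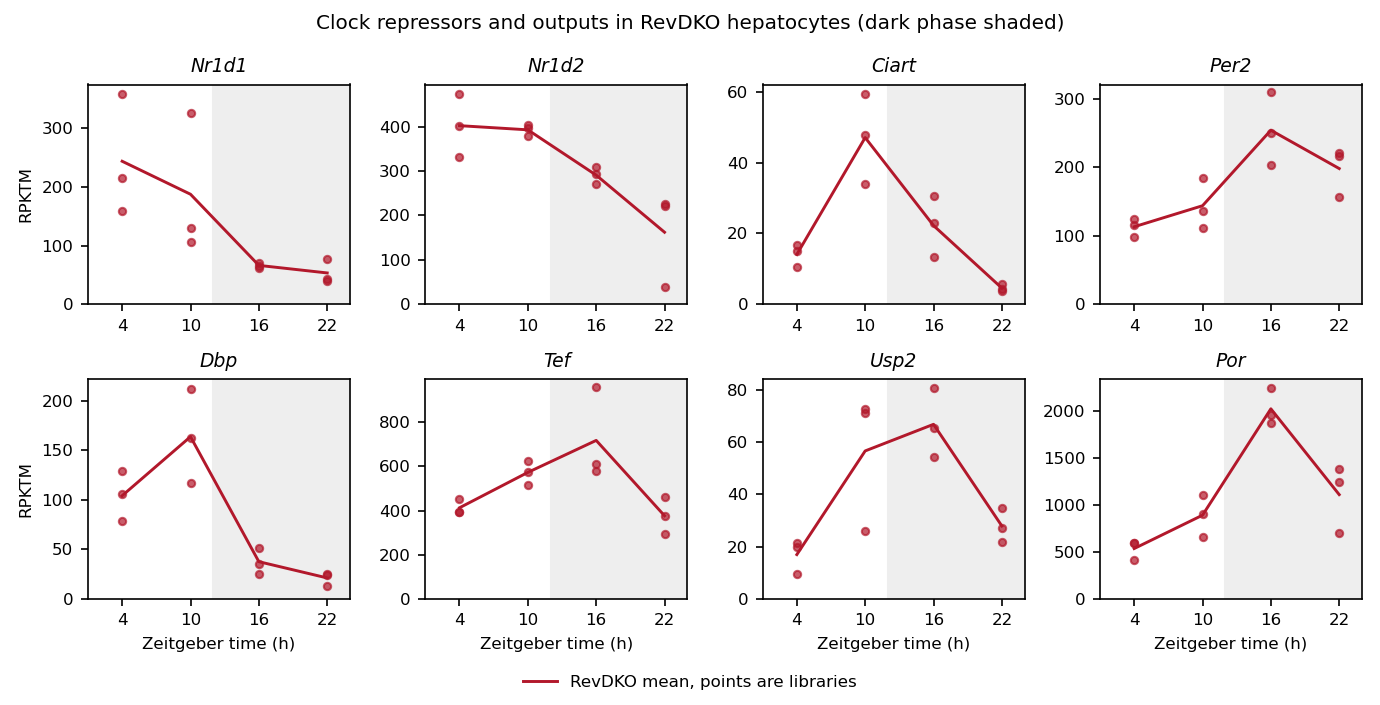
Levels in RPKTM (vertical axes) of 8 clock genes against zeitgeber time (horizontal axes) in RevDKO hepatocytes, each point a library and each line the mean of 3, with the dark phase shaded. Ciart and Dbp peaked at ZT10, and Por at ZT16.

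The promoters of the called clock genes were read from mm9 as the 250 bases before the start of the transcript measured. They were searched for E-boxes (CACGTG, bound by BMAL1 and CLOCK) and D-boxes (TTANGTAA, bound by DBP and its relatives). Both are elements known to carry clock regulation. Whether the clock acts on these genes through them was not tested. Of the 8 called clock genes, 4 held a match on either strand, and these are shown 5′ to 3′ in the direction of the gene, with the match in capitals.
Ciart promoter, chr3:95686152-95686401, minus strand: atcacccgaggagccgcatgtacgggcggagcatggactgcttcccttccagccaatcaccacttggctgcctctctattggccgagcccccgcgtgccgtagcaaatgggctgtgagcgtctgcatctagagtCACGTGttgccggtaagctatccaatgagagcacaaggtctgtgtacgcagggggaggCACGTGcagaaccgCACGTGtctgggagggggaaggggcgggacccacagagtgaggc
Tef promoter, chr15:81632853-81633102, plus strand: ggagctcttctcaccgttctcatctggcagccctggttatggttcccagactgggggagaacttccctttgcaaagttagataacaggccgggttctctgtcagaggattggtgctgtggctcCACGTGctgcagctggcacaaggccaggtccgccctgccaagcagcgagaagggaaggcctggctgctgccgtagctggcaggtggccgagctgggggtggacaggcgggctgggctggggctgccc
Wee1 promoter, chr7:117265323-117265572, plus strand: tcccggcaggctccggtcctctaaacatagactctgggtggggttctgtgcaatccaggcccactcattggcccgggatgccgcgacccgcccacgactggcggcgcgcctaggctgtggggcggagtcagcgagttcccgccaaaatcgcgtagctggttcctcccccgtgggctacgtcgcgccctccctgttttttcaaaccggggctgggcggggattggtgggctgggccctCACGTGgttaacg
Per2 promoter, chr1:93355906-93356155, minus strand: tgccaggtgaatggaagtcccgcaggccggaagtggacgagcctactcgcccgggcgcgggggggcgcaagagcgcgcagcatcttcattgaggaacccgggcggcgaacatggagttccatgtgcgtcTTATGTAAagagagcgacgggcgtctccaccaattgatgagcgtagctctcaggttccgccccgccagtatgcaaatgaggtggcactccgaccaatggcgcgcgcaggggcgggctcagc
Ciart held 3 E-boxes, starting at positions -116, -58 and -44 from the transcript start, Tef 1 at -127 and Wee1 1 at -13, and Per2 held 1 D-box at -121. An E-box was present in 8.17% of the 12539 promoters read and a D-box in 1.35%. Among genes highest at ZT4, ZT10, ZT16 and ZT22 the share with an E-box was 4.55%, 4.76%, 8.33% and 5.05%. The core of the ROR response element (TAGGTCA) was found in 3.64%, 7.94%, 2.38% and 1.01% of these classes, or 4, 5, 2 and 2 promoters, against 1.83% of all. These are letter matches in 1 window per gene and not binding sites.

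Fatty acid and triglyceride synthesis gave the most calls of any list: 13 of 21 genes, against 3.62% of all genes tested, 12 of them highest at ZT22 and Thrsp at ZT16. Fasn, the fatty acid synthase (NM_007988, chr11:120667272-120685861), measured 3205, 2631 and 2765 at ZT4, 2838, 2274 and 3247 at ZT10, 16763, 7905 and 10848 at ZT16 and 16763, 15851 and 7485 at ZT22. All 6 dark-phase libraries lay above all 6 light-phase libraries, and ZT22 exceeded ZT10 by 2.19 ± 0.30 (adjusted p 0.0022). Elovl6, an elongase, measured 133, 254 and 120.2 at ZT4, 129, 161 and 249 at ZT10, 1030, 582 and 859 at ZT16 and 891, 1267 and 679.9 at ZT22, with the same separation of light and dark and a difference of 2.51 ± 0.32 (adjusted p 0.00178).

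Acetyl-CoA carboxylase, which makes malonyl-CoA, is encoded by Acaca and Acacb. Acacb measured 333, 285 and 272 at ZT4, 205, 124 and 175 at ZT10, 820.4, 481 and 536 at ZT16 and 682, 806 and 578 at ZT22, and ZT22 exceeded ZT10 by 2.04 ± 0.22 (adjusted p 0.00178). Acaca rose from 434 ± 63 at ZT10 to 1200.1 ± 301 at ZT22 (adjusted p 0.00372). Me1, the malic enzyme that supplies NADPH, rose from 105 ± 30.1 to 333 ± 57.8 (adjusted p 0.00311), and Acly, which makes cytosolic acetyl-CoA, from 1179.9 ± 13.5 to 3530.1 ± 719 (adjusted p 0.00857). Both were lowest at ZT10.

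The other 7 called members were Srebf1, which encodes the lipogenic factor SREBP1, the desaturase gene Scd1, the acyltransferase genes Gpam, Agpat2 and Dgat2, Pnpla3, and Thrsp. Srebf1 measured 1358, 1080.5 and 976 at ZT4, 1978, 1532 and 2117 at ZT10, 2299.6, 2221 and 2816 at ZT16 and 3334, 3024 and 2027 at ZT22, with a difference of 1.28 ± 0.20 (adjusted p 0.0129). Scd1 rose from 3399 ± 711 at ZT10 to 18660 ± 5375 at ZT22 (adjusted p 0.0184). On leaving out single libraries the calls of Fasn, Elovl6, Acaca, Acacb, Me1, Acly and Srebf1 were kept each time. In the fit of 36 libraries, however, Srebf1 (adjusted p 0.121), Acaca (0.0544), Gpam (0.0516), Agpat2 (0.216) and Thrsp (0.222) were not called, nor with no filter on low values Srebf1 (0.0568) and Acly (0.0505). The call was lost without ZT22 replicate 1 or 2 for Scd1 (adjusted p 0.0548 and 0.0509), without ZT4 replicate 1 for Dgat2 (0.0504) and without ZT16 replicate 1 for Thrsp (0.0585), without any of 4 libraries for Gpam, 3 for Agpat2 and 9 for Pnpla3.

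The marker sums of macrophages, endothelial and stellate cells rose along with these genes. With the marker score as a covariate none of the 13 calls was kept, and the adjusted p went from 0.0663 for Acacb to 0.361 for Scd1. The part of other cells in these differences was not tested.

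Several of these genes peaked at another time in Control. Control Fasn was 2957 ± 899 at ZT4, 17369 ± 4853 at ZT10, 6974 ± 3566 at ZT16 and 6167 ± 3998 at ZT22. The time course of Fasn differed between the genotypes (adjusted p of the interaction 0.017), although not without ZT10 replicate 1 (0.0678) or ZT10 replicate 2 (0.092). The same held for Acly (adjusted p 0.00934) and Gpam (0.00349), in both also without each RevDKO library in turn, and for 3 of 21 list members in all, against 0.158% of the 13326 genes tested. For the other 10 called members the interaction with Control was not called, with adjusted p-values of 0.18 for Elovl6, 0.612 for Acaca and 0.981 for Srebf1.

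**Figure D4:**
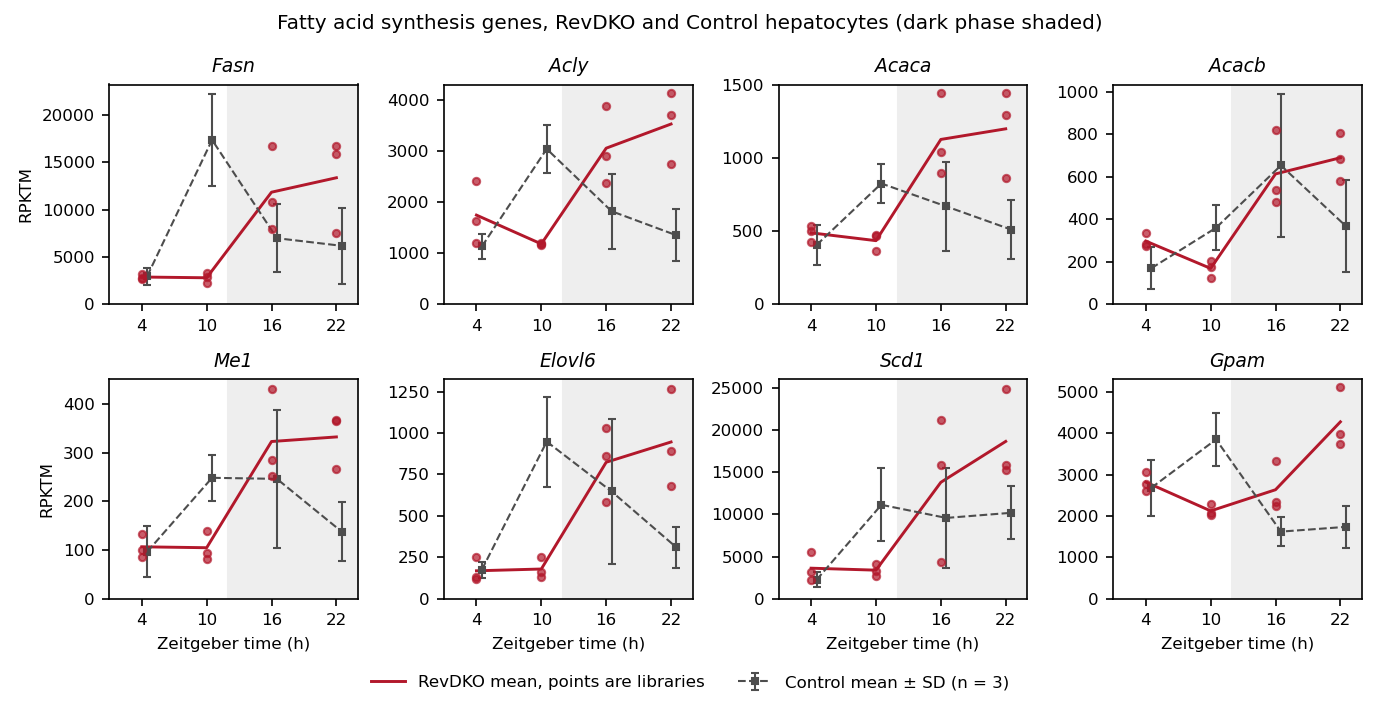
Levels in RPKTM (vertical axes) of 8 lipid synthesis genes against zeitgeber time (horizontal axes), with RevDKO libraries as red points joined at the means and Control as grey means ± SD of 3 libraries, the dark phase shaded. In RevDKO, Fasn was low at ZT4 and ZT10 and high at ZT16 and ZT22, whereas the Control mean was highest at ZT10.

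Glucose and glycogen genes gave 6 calls of 19, against 3.62% of all genes, all highest at ZT16 or ZT22. Khk, the ketohexokinase that starts fructose breakdown, measured 498, 523 and 533 at ZT4, 644, 839 and 937 at ZT10, 1720, 1304 and 1314 at ZT16 and 1849, 1968 and 1386 at ZT22. The light and dark libraries did not overlap, and the difference was 1.73 ± 0.17 (adjusted p 0.00146). Pklr, the liver pyruvate kinase, rose from 321 ± 138 at ZT4 to 1326 ± 278 at ZT16 (adjusted p 0.0136), and G6pc, the glucose-6-phosphatase of glucose output, from 1555 ± 458 at ZT10 to 3125 ± 201 at ZT22 (adjusted p 0.0158, or 0.276 in the fit of 36 libraries). Fbp1, Pygl and Sds were called at adjusted p-values of 0.0498, 0.05 and 0.0345, which exceeded 0.05 on leaving out any of 9, 11 and 7 libraries.

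Cholesterol synthesis and uptake gave 4 calls of 24, against 3.62% of all genes, of which 3 are described. Sc5d and Nsdhl were highest at ZT4 and Msmo1 at ZT10, all enzymes of the late sterol pathway. Nsdhl measured 301, 529 and 266 at ZT4, 311, 183 and 196 at ZT10, 203, 147 and 109 at ZT16 and 125, 152 and 101 at ZT22 (adjusted p 0.0366). The ZT4 libraries lay above all at ZT22, by 1.48 ± 0.29. These 3 calls were lost on leaving out single libraries, in 7 fits of 12 for Sc5d, 9 for Nsdhl and 10 for Msmo1, with adjusted p-values up to 0.0989.

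Fatty acid breakdown gave 1 call of 24 genes, near the 3.62% of all genes tested, while 12 of the 24 had an unadjusted p under 0.05, against 2912 of 12582 overall. The gene called was Bdh1, which makes the ketone body 3-hydroxybutyrate, with 353 ± 24.3 at ZT10 and 168 ± 35.6 at ZT22 (adjusted p 0.018). Outside that list, Crot, the peroxisomal carnitine octanoyltransferase, had the smallest p of the genes highest at ZT4. It measured 1615, 2033 and 1724 at ZT4, 1621, 1656 and 1259 at ZT10, 506, 666 and 678 at ZT16 and 549, 503 and 728 at ZT22, with all light libraries above all dark ones and a difference of 1.60 ± 0.18 (adjusted p 0.00146). Fabp1, the liver fatty acid binding protein, was highest at ZT10, with 4349 ± 168 against 1475 ± 378 at ZT22 (adjusted p 0.00258).

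Glucocorticoid targets gave 2 calls of 13, against 3.62% of all genes, both highest at ZT16. Fkbp5, a chaperone of the glucocorticoid receptor, measured 29.1, 77.5 and 67.7 at ZT4, 51.3, 182 and 142 at ZT10, 535, 557 and 537 at ZT16 and 170.1, 248 and 199.9 at ZT22. The 3 libraries at ZT16 agreed closely and lay above the other 9, by 3.32 ± 0.41 over ZT4 (adjusted p 0.00493). Lpin1, a phosphatidate phosphatase, measured 1138, 958 and 963 at ZT4, 253, 995 and 942 at ZT10, 3829, 3799.8 and 1743 at ZT16 and 1220, 1532 and 2054 at ZT22 (adjusted p 0.0413), and its call was lost without any of 8 libraries. The heat shock and cold-inducible list gave 2 calls of 17, against the same 3.62%. Hsph1, a heat shock chaperone, was highest at ZT16 (274 ± 65.7) and lowest at ZT10 (94.7 ± 25.7), and Cirbp, a cold-inducible RNA binding protein, highest at ZT10 (60 ± 8.96) and lowest at ZT16 (19.6 ± 3.95), with adjusted p-values of 0.0164 and 0.0238. Hsph1 was not called without ZT16 replicate 1 (0.0571), nor Cirbp without ZT16 replicate 1 (0.0545), ZT16 replicate 3 (0.0716) or ZT22 replicate 1 (0.054).

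Bile acid genes gave 2 calls of 14, against 3.62% of all genes. Slc10a2, the apical sodium-dependent bile acid transporter, measured 96.7, 137 and 100 at ZT4, 31.1, 29.2 and 39.1 at ZT10, 98, 97.1 and 86.1 at ZT16 and 70.8, 72.5 and 112 at ZT22. It was low at ZT10 alone, where all 3 libraries lay below the other 9, and ZT4 exceeded ZT10 by 1.71 ± 0.21 (adjusted p 0.00372, or 0.108 in the fit of 36 libraries). Slc10a1, the basolateral transporter, rose from 1314 ± 167 at ZT4 to 2592 ± 395 at ZT22 (adjusted p 0.0319), a call lost without any of 6 libraries. Cyp7a1, the rate-limiting enzyme of bile acid synthesis, had an adjusted p of 0.0596.

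Xenobiotic metabolism gave 4 calls of 23, against 3.62% of all genes. Nr1i3, the receptor CAR, was highest at ZT10 (779.5 ± 46.1) and lowest at ZT16 (409 ± 50.4, adjusted p 0.0156, or 0.059 without ZT10 replicate 3). Cyp2b10, a gene that CAR activates, was listed at 0 in all 3 libraries at ZT4 and measured 14.9, 6.5 and 17.6 at ZT16. Cyp2a5 was highest at ZT16 and Cyp3a13 at ZT22, with adjusted p-values of 0.0396 and 0.0477, and the calls of these 3 P450 genes were lost in 9 or 10 of the 12 fits without a library. Cyp2a5 shares reads with close paralogues and is uncertain.

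Apart from 4 secreted ligands, of which 1 was called, the remaining lists gave 1 call or none each, near the 3.62% of all genes tested. Unadjusted p-values of the F-test were under 0.05 in 8 of 16 growth hormone genes and 7 of 18 amino acid genes. They were under 0.05 in 5 of 20 stress response genes, and in 2912 of 12582 genes overall. Ghr, the growth hormone receptor, was 1 of 16 and fell from 2494 ± 111 at ZT4 to 1451 ± 296 at ZT16 (adjusted p 0.0215), though not without ZT4 replicate 1 (0.0608), ZT16 replicate 1 (0.0667) or ZT22 replicate 1 (0.0577). Asl, argininosuccinate lyase of the urea cycle, was 1 of 18 and rose from 1059 ± 131 at ZT4 to 2553 ± 242 at ZT16 (adjusted p 0.00372). Trib3, a pseudokinase induced by the integrated stress response, was 1 of 20, with 21.1 ± 4.78 at ZT4 and 4.39 ± 1.72 at ZT16 (adjusted p 0.00841). Of 4 secreted ligands that the study drew from its own data, and which are therefore no independent evidence, Bmp5 was called. It rose from 16.6 ± 5.43 to 58 ± 22.1 at ZT22 (adjusted p 0.0407), a call lost without any of 8 libraries. With the marker score as a covariate in the limma fit its adjusted p was 0.741. The part of other cells in its rise was not tested. limma called 0 of 13 genes for cell cycle and growth, 0 of 18 for the acute phase and 0 of 8 immediate early genes, of which 2, 5 and 0 had an unadjusted p under 0.05.

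Among the genes with the smallest p in each class, those highest at ZT4 were, beside Crot, Sult2a8, a sulfotransferase, Fbxo21, a ubiquitin ligase subunit, Mup7, a major urinary protein, and Adgrf1, an adhesion receptor, with adjusted p-values from 0.00178 to 0.00372. In the fit of 36 libraries Sult2a8 (0.203) and Mup7 (0.123) were not called. Mup7 measured 1988, 1169.8 and 1911 at ZT4, 1812, 864 and 571 at ZT10, 79.4, 173 and 93.9 at ZT16 and 565, 383 and 1237 at ZT22, a difference of 3.90 ± 0.45. It has near-identical copies, so that its reads could be split between them. Tsc22d1, a transcriptional regulator, was highest at ZT10 with 714, 609 and 446 at ZT10, above all other libraries (adjusted p 0.0022, or 0.255 in the fit of 36 libraries), and Pde6c, a phosphodiesterase subunit, peaked at the same time at 31.1 ± 6.3.

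At ZT16 the leading genes beside Asl and Fkbp5 were Celsr1, a cadherin of planar cell polarity, Fmo2, a flavin monooxygenase, and Cd163, a haemoglobin scavenger receptor of macrophages. Celsr1 measured 142, 139.5 and 152 at ZT4, 213, 159 and 240.1 at ZT10, 544, 713 and 429 at ZT16 and 536, 494 and 389 at ZT22, with light and dark libraries apart and a difference of 1.92 ± 0.20 (adjusted p 0.00146). Fmo2 rose from 9.93 ± 3.3 at ZT4 to 75.5 ± 15.2 at ZT16 (adjusted p 0.00311). Cd163 went from 52 ± 9.26 at ZT10 to 197 ± 65.2 at ZT16, with 707 in the macrophage table, and moved with the macrophage markers; their part in its rise was not tested. At ZT22, Atp2b2, a plasma membrane calcium pump, measured 11.4, 15.2 and 9.28 at ZT4, 6.92, 17.7 and 21.1 at ZT10, 89.4, 44 and 47.4 at ZT16 and 116, 106 and 85 at ZT22, with light and dark libraries apart and a difference of 3.01 ± 0.37 (adjusted p 0.0022).

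Beside Mup7, the widest ranges among called genes were those of Rprl3, a small RNA gene, and Moxd1, a monooxygenase-like gene. Rprl3 was listed at 0 in all 3 libraries at ZT22 and measured 74, 33.9 and 70.1 at ZT10; the libraries at ZT4 spread from 0 to 57.4. Its call was lost without any of 9 libraries. Moxd1 measured 156, 32.9 and 158 at ZT4, 27.1, 4.59 and 12.4 at ZT10, 5.46, 3.81 and 3.71 at ZT16 and 46.2, 31.6 and 10.2 at ZT22, a difference of 4.17 ± 0.67 (adjusted p 0.0195), and was not called without ZT4 replicate 1 (0.076) or 3 (0.0647) or ZT16 replicate 1 (0.0534) or 3 (0.0553).

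Against Control, the time course of 21 of 13326 genes differed (0.158%, limma interaction test, with 543 at an unadjusted p under 0.05), and against RevScapTKO that of 0 (0%, 581 at an unadjusted p under 0.05). A count of 0 does not show that the RevDKO and RevScapTKO time courses were alike. The study called rhythms within each genotype by JTK_CYCLE, a rank test for daily waves, which is an unlike test. It reports that Scap loss reversed most of the rhythms gained in RevDKO hepatocytes. The comparison with Control shares the RevDKO libraries with the tests above. Besides Fasn, Acly and Gpam, the 21 genes that differed from Control included Arntl, Cry1, Nfil3, a repressor of D-box genes, Ddc, the aromatic amino acid decarboxylase, Loxl4, a lysyl oxidase, Chka, a choline kinase, and Clpx, a subunit of a mitochondrial protease. Each of these 7 was lowest at ZT4 or ZT10 in Control and none was called over time within RevDKO. Cry1 went from 24.9 ± 8.78 at ZT4 to 161 ± 34.3 at ZT16 in Control, and measured 141, 98.7 and 108 at ZT4, 141, 233 and 206 at ZT10, 192, 122 and 223 at ZT16 and 133, 124 and 134 at ZT22 in RevDKO. Loxl4 lay between 548 and 892 in all RevDKO libraries and had Control means between 11.9 and 129.

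Lpl, the lipoprotein lipase, fell through the day in RevDKO and had its highest Control mean at ZT22. It measured 368, 348 and 339.6 at ZT4, 352, 168 and 254 at ZT10, 128, 221 and 168 at ZT16 and 119, 135 and 125 at ZT22 in RevDKO (adjusted p 0.018), and Control means went from 16.8 ± 7.42 at ZT10 to 73 ± 12.9 at ZT22. The interaction had an adjusted p of 0.00185 and was kept without each RevDKO library, while the call within RevDKO was lost without ZT4 replicate 1 (0.0608) or ZT22 replicate 1 (0.0589).

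**Figure D5:**
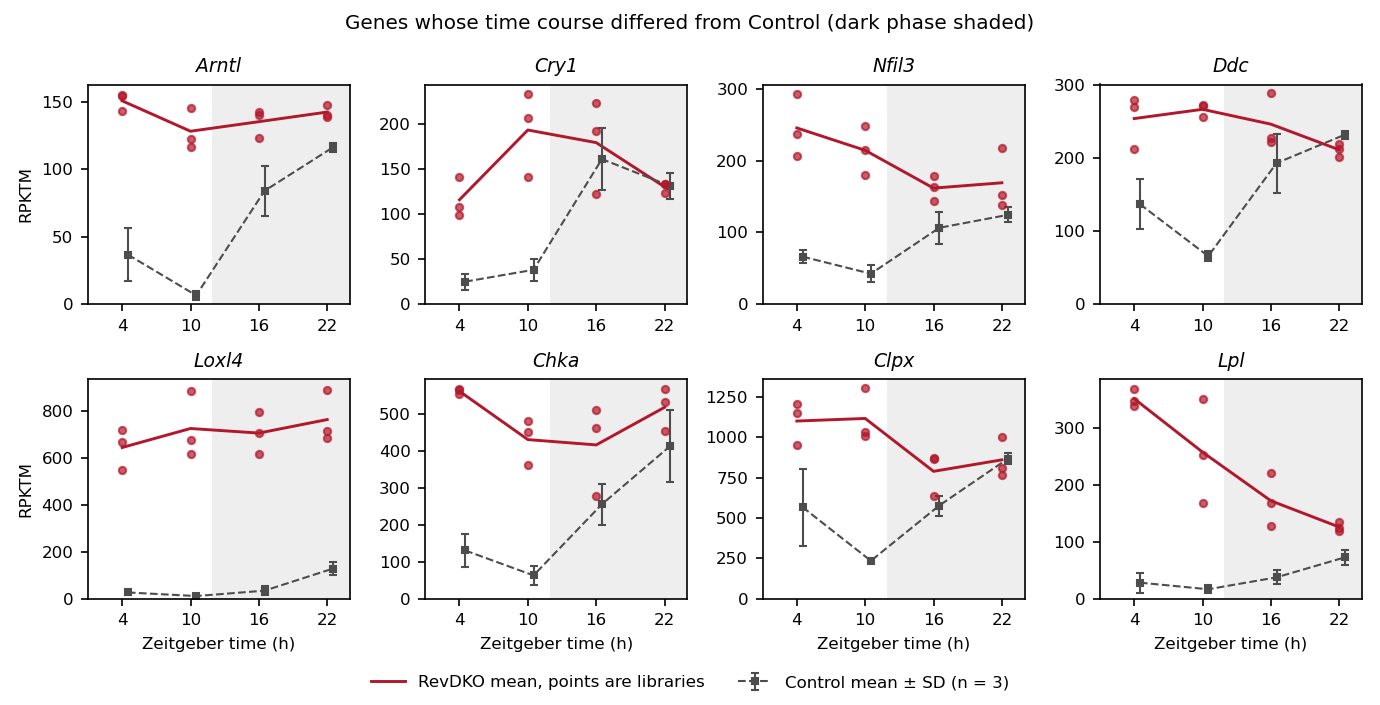
Levels in RPKTM (vertical axes) of 8 genes whose time course differed between RevDKO and Control hepatocytes, against zeitgeber time (horizontal axes), with RevDKO libraries as red points joined at the means and Control as grey means ± SD of 3 libraries, the dark phase shaded. Arntl stayed between 117 and 155.1 in RevDKO, while the Control mean rose from 6.49 at ZT10 to 116 at ZT22.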

How the data were processed

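Per the labels and the methods of the study, ribosomal RNA was depleted, stranded libraries were sequenced, and the authors aligned reads to mm9 with STAR and quantified RefSeq transcripts with HOMER (versions not given in the sources used here). Each deposited value is an RPKM multiplied by 10 (RPKTM), quantile normalized by the authors over 36 hepatocyte libraries. They are not counts, the depth is unknown, and a shift of most genes would be hidden. The deposited macrophage RPKM values (RPKTM, normalized apart) were used only beside hepatocyte levels.

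Of 42322 transcripts, the one with the highest mean represented each of 25095 symbols, and genes with at least 3 RevDKO libraries over 5 RPKTM were kept. The fit was limma 3.58.1 (R 4.3.3, trend) on log2(RPKTM + 1), with 1 mean per time and 8 residual degrees of freedom. Genotypes were compared by a time by genotype interaction over 36 libraries. Scripts in Python 3.11.15 drew promoters from NCBIM37 (mm9). Fits were tested on simulated data. Named genes were the 5 with the smallest p per class (range at least 1 log2 unit, peak over 20 RPKTM), up to 6 called members per list with all clock genes, the 3 widest ranges and the targeted genes; further called list members and genes differing from Control were named after their values were seen. The members and lists were chosen with earlier results of these data known. The ScapKO tables were not used here, and results for a few genes are not reported here.

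The labels tie replicate numbers to no shared animal or batch, so the number was a block only in an alternative. Of 18 same-numbered pairs, 17 correlated over 0 and 7 over 0.1, so a pairing that the main fit ignores is possible. Alternatives were other pseudocounts, filters, transcripts, a block, other fits, JTK_CYCLE and leaving out each library.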

Additional observations from a re-analysis of the deposited data

Results flagged for a closer look

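For 21 genes the time course differed between RevDKO and Control hepatocytes by the limma interaction test over 36 libraries, and those given here were singled out for that difference. The size given is the shift, in log2 units, of the RevDKO minus Control difference between the times where it was highest and lowest. The adjusted p was 2.03e-07 for Arntl (shift 3.91), 0.000867 for Ddc (2.14), 0.000906 for Cry1 (2.33), 0.00185 for Lpl (3.09), 0.00304 for Loxl4 (3.25) and 0.00349 for Gpam (2.17). It was 0.00788 for Crybg2 (3.73), 0.00934 for Nfil3 (1.92) and Acly (2.8), 0.00935 for Clpx (2.25) and Chka (2.48), and 0.017 for Fasn (3.91). It was 0.0194 for Rtn4rl1 (1.87) and Gm31508 (2.18), 0.0246 for Gm35986 (4.21), 0.0256 for Cir1 (2.47) and Rwdd2a (4.11), 0.0281 for Fgfrl1 (1.4), 0.0386 for Ube2u (2.63) and 0.0483 for Cdkn1a (4.12).

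The difference between the genotypes was largest at ZT10 and in favour of RevDKO for Arntl, Ddc, Cry1, Lpl, Loxl4, Nfil3, Clpx, Chka, Rtn4rl1, Gm31508 and Cdkn1a. Cir1 and Ube2u were higher in RevDKO at ZT10 and lower at ZT4 and ZT16. In Gpam, Crybg2, Acly, Fasn, Gm35986, Rwdd2a and Fgfrl1 RevDKO was lower at ZT10 and higher at ZT22. Without 1 RevDKO library, 10 of the 21 kept their call in every fit, among them Arntl, Ddc, Cry1, Lpl, Loxl4, Gpam, Nfil3, Acly and Chka.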

How the results depend on the processing

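Without a filter on low values 169 genes differed between the 4 times, and the pairs gave 2 (ZT10 against ZT4), 20 (ZT16 against ZT10), 7 (ZT22 against ZT16), 242 (ZT4 against ZT22), 238 (ZT16 against ZT4) and 13 (ZT22 against ZT10). With transcripts as separate rows there were 769 genes, with 176 (ZT16 against ZT10), 1032 (ZT4 against ZT22), 830 (ZT16 against ZT4) and 343 (ZT22 against ZT10) in pairs and 35 against Control. In the fit of 36 libraries the pairs gave 0 (ZT10 against ZT4), 0 (ZT16 against ZT10), 1 (ZT22 against ZT16), 288 (ZT16 against ZT4) and 69 (ZT22 against ZT10). With the replicate block there were 701 genes, with 2, 136 and 378 for ZT10 against ZT4, ZT16 against ZT10 and ZT22 against ZT10. The block called Per3 (0.00564), lost Gm35986 (0.0562) and changed no other time-course call followed by gene; against Control it lost Cdkn1a (0.0536). Deviations of same-numbered libraries correlated between -0.01 and 0.302, over 0 in 17 of 18 pairs (12 of 36 for other pairs) and over 0.1 in 7, and 8 of 12 libraries were closest to their own number, a hint from the data of a shared factor that the labels do not give. Deviations were taken from the mean of the 3 libraries of a time, so same-numbered and other pairs are not independent. A 24 h cosine called 710, and JTK_CYCLE 3146 with the series entered 2 times (413 also called by the F-test) and 1093 with it entered once (228). The JTK_CYCLE p was adjusted for the wave patterns tried and not over genes. A highest mean over 1.5 times the lowest was also required. The JTK_CYCLE counts are therefore not comparable with the counts after adjustment over genes. With the marker score there were 4, with 15, 3, 0, 76 and 0 for ZT10 against ZT4, ZT16 against ZT10, ZT4 against ZT22, ZT16 against ZT4 and ZT22 against ZT10. Against RevScapTKO, no filter gave 4. Leaving out 1 library gave 139 to 570 genes, and for pairs 0 to 7 (ZT10 against ZT4), 4 to 102 (ZT16 against ZT10), 0 to 1 (ZT22 against ZT16), 119 to 862 (ZT4 against ZT22), 97 to 776 (ZT16 against ZT4) and 15 to 378 (ZT22 against ZT10), and 11 to 23 against Control. Of 76 time-course calls followed gene by gene 34 were kept without each of the 12, and 46 were lost with no filter, 30 in the fit of 36 libraries, 73 with the marker score, 8 and 1 with pseudocounts of 0.1 and 5 and 5 with transcripts as rows. None changed direction under these alternatives. The cause of these shifts was not tested. Depth is unknown.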
